A study of Mus musculus with 22 samples.

Results

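The C/EBP genes Cebpa, Cebpb, Cebpd, Cebpe, Cebpg and Cebpz and their myeloid partners Spi1 and Gfi1, 8 genes in all, were followed through all deposited measurements of fetal livers that had lost the RNA methyltransferase gene Mettl3 in blood cells. They were chosen by gene name, with earlier results of these data known. All 8 were found in each of the 4 count tables. These hold 52459 genes for bulk RNA, liver RNA and chromatin and 14780 genes for single cells. The 22 libraries fall into 10 groups, all from E14.5 embryos. In the knockout (KO) a Cre recombinase under the Vav promoter, which is active in blood cells, acted on floxed Mettl3 alleles. The controls (WT) were Mettl3fl/fl mice without that Cre, so the floxed alleles are shared by all groups. LSK cells, sorted as lacking lineage markers and carrying Sca-1 and c-Kit, were used for bulk RNA-seq with 3 libraries per genotype, and for H3K4me3 CUT&RUN and single-cell RNA-seq with 2 libraries per genotype each. Whole livers, which also hold cells in which Vav is not active, were divided between an INPUT RNA library and a J2 library, 2 of each per genotype; J2 is an antibody to RNA duplexes.

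C/EBP proteins are basic leucine zipper factors that bind DNA as dimers. In the bone marrow and fetal liver, C/EBPα opens the granulocyte and monocyte path together with PU.1, the ETS factor encoded by Spi1, C/EBPβ and C/EBPδ act in inflammatory and stress-driven myelopoiesis, and C/EBPε turns on the genes of the late granules. C/EBPγ has no activation domain of its own and pairs with other zipper proteins, ATF4 among them. Cebpz carries a related name only because its product was found through CCAAT boxes; it has no zipper and belongs to a family of ribosome assembly factors. Gfi1 encodes a zinc finger repressor that favours granulocytes over monocytes.

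RefSeq promoter sequences (GRCm38.p6, the 250 bases before each start) were at hand for 4 of the 8 genes, Cebpa, Cebpb, Cebpg and Gfi1. They are shown because the start sites of these genes lie within the chromatin windows described below, and the 3 printed here are those that held any of the motifs searched. Lower case is the sequence of the gene's own strand from 5′ to 3′, and capitals mark the matches. The Cebpb promoter, chr2:167688665-167688914 on the plus strand, held the cyclic AMP response core TGACG at 3 places, 1 of them on the other strand (printed as CGTCA). The Cebpg promoter, chr7:35056567-35056816 on the minus strand, held the CCAAT box at 2 places, both on the other strand (printed as ATTGG). A Gfi1 promoter, chr5:107725806-107726055 on the minus strand, held 1 match to the C/EBP dimer motif TTGCNNAA, printed as TTGCTGAA.
Cebpb: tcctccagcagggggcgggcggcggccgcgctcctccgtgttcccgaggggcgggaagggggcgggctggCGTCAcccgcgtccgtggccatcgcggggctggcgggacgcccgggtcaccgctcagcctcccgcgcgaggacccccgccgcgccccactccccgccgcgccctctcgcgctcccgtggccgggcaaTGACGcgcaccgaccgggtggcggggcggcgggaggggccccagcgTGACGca
Cebpg: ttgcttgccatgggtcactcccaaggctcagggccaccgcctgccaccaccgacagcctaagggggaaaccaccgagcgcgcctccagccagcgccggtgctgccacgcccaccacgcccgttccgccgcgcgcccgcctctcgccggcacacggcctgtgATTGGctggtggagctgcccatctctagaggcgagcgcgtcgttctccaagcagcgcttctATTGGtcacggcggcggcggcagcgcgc
Gfi1: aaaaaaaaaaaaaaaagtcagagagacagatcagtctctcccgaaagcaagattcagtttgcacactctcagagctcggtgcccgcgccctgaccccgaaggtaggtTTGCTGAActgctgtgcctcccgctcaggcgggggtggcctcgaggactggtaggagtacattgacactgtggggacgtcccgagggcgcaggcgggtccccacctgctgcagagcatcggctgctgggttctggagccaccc

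The Cebpb matches lay at −180 to −176, −53 to −49 and −7 to −3 from the start, the Cebpg matches at −89 to −85 and −28 to −24, and the Gfi1 match at −143 to −136. Among 32851 mouse promoters of the same length, 17.8% held TGACG, 33.8% held CCAAT and 9.56% held TTGCNNAA on either strand, so that none of these is a rare motif. The other motifs searched were GAGGAAG (PU.1), AAATCA (Gfi1) and TGATGNAA (C/EBP with ATF), held by 10.6%, 12.4% and 3.45% of promoters. None of these 6 motifs was found in the Cebpa promoter or at the other RefSeq start of Gfi1. The Cebpb promoter was the richest in G and C of the 5 examined, 81.6% of its bases against a median of 52.4% over all promoters, and held 41 CpG dinucleotides.

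Totals per library were 20088100 to 40641081 counts in bulk RNA, 11508749 to 14451593 in H3K4me3 windows, 3100910 to 4120864 in INPUT, 3873688 to 5251496 in J2 and 7264127 to 11638238 summed over single cells. Values below are counts divided by library size in units of 1e6 (CPM) after TMM normalization, and p-values come from the quasi-likelihood F test of edgeR, adjusted by Benjamini-Hochberg over all genes or windows tested. A gene was called higher or lower where its adjusted p was under 0.05. Log2 fold changes (log2FC) are KO over WT unless stated, each with its standard error (SE). Replicates are called biological in the labels, and p-values measure the spread between these samples. Mettl3 itself was at 4.13, 6.31 and 5.52 CPM in the bulk KO libraries and at 43.0, 43.0 and 33.2 CPM in the WT libraries (log2FC −2.91, adjusted p = 1.6e-05). In whole liver it was at 6.70 and 26.9 CPM in KO against 29.4 and 24.9 CPM in WT INPUT (log2FC −0.70, adjusted p = 0.557), so the 2 KO livers differed from each other. In the single-cell libraries it went against the labels, with 64.3 and 52.2 CPM in those labelled KO and 36.3 and 33.3 CPM in those labelled WT (log2FC 0.74, adjusted p = 0.251). Which exons were deleted, and whether these reads lie outside them, is not given in the sources used here.

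In bulk RNA of LSK cells all 8 genes rose in KO. The background was high: 44.2% of the 14405 genes tested were called, with 21.6% of those tested higher and 22.6% lower, and in 26.8% every KO library lay above every WT library. The rise was largest for the inflammatory and late-granule members Cebpd, Cebpe and Cebpb, moderate for Cebpa, Gfi1 and Spi1, and small for Cebpg and Cebpz.

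Cebpa, which starts the granulocyte-monocyte path, was at 79.3, 63.8 and 70.2 CPM in KO and at 45.6, 37.2 and 49.0 CPM in WT. The groups did not overlap, and the log2FC was 0.70 (SE 0.12, adjusted p = 0.00143, edgeR). Spi1, its partner in early myeloid cells, was at 186, 185 and 180 CPM in KO and at 124, 132 and 160 CPM in WT. The KO libraries were nearly alike while the WT libraries were spread, and the log2FC was 0.41 (SE 0.094, adjusted p = 0.00676). Gfi1, the repressor that works beside C/EBP factors in granulocytes, was at 39.6, 41.6 and 38.6 CPM in KO and at 26.4, 28.7 and 31.9 CPM in WT. Again the groups stood apart, with a log2FC of 0.46 (SE 0.091, adjusted p = 0.00317).

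Cebpb, the member induced by cytokines and stress, was at 73.3, 67.3 and 69.9 CPM in KO and at 23.98, 22.3 and 28.1 CPM in WT. Every KO library held more than 2 times the level of every WT library, and the log2FC was 1.51 (SE 0.096, adjusted p = 2.4e-05). Cebpd, an acute-phase member, was at 30.8, 33.0 and 29.9 CPM in KO and at 7.01, 6.74 and 6.09 CPM in WT. Its log2FC of 2.23 (SE 0.10, adjusted p = 8.8e-06) was the largest of the 8. Cebpe, which acts late in granulocytes, was at 7.59, 7.72 and 7.40 CPM in KO and at 2.29, 2.67 and 1.58 CPM in WT. This was the member with the fewest reads, 32 to 99 counts per WT library, and its log2FC was 1.77 (SE 0.19, adjusted p = 0.000136).

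Cebpg, the zipper partner without an activation domain, was at 102, 106 and 105 CPM in KO and at 88.0, 87.5 and 94.4 CPM in WT (log2FC 0.21, SE 0.064, adjusted p = 0.0248). Cebpz, the ribosome assembly factor, was at 235, 251 and 240 CPM in KO and at 209, 190 and 206 CPM in WT (log2FC 0.26, SE 0.067, adjusted p = 0.0121). Both kept separate groups, but the differences are small. With library size alone in place of TMM, for which the median over all genes was −0.11 and not −0.02 and the calls went from 3114 higher and 3253 lower to 2463 and 4143, Cebpg fell to 0.12 (adjusted p = 0.112) and Cebpz to 0.17 (adjusted p = 0.0586). The Cebpg call was also lost without KO replicate 3 (adjusted p = 0.0529) or without WT replicate 2 (adjusted p = 0.0531). The other 6 members kept their calls in every alternative run. In bulk samples, more cells of a type and more RNA of a gene per cell cannot be told apart.

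**Figure D1:**
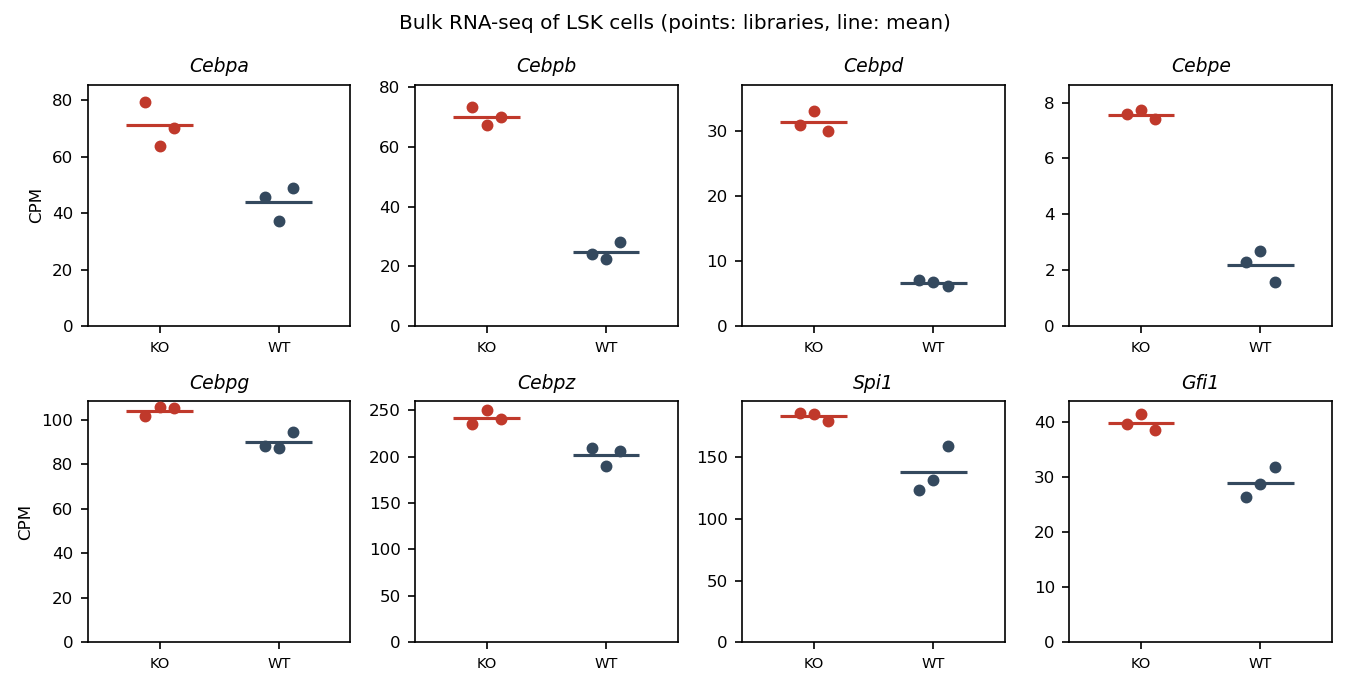
Bulk RNA-seq levels of the 8 genes in CPM (y axis, from 0), with a point for each of the 3 KO and 3 WT libraries and a line at the group mean. The ratio of KO to WT is largest for Cebpd, Cebpe and Cebpb, while for Cebpg the KO libraries at 102 to 106 CPM lie just above the WT libraries at 87.5 to 94.4 CPM.

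Genes known as targets of these factors, or listed with them, moved unevenly in bulk RNA. Primary granule genes are driven by C/EBPα, PU.1 and Myb in promyelocytes. The list used for them held 10 genes: Mpo, Elane, Prtn3, Ctsg, Ms4a3, Ctsc, Hp, Fcnb, Plac8 and Calr. Not all of these encode primary granule proteins. Of the 10, 8 rose and none fell (median log2FC 1.25 against −0.02 over all genes), where 21.6% of all genes rose. Ms4a3, a membrane protein of granulocyte-monocyte progenitors, rose from 7.98, 8.35 and 5.25 CPM in WT to 49.5, 61.9 and 56.3 CPM in KO (log2FC 2.94). Haptoglobin (Hp, log2FC 2.59), cathepsin G (Ctsg, 2.32) and proteinase 3 (Prtn3, 1.67) rose with it. Elane, the neutrophil elastase gene, had a log2FC of 0.51 (adjusted p = 0.114), and Fcnb one of −0.17 (adjusted p = 0.73). Of 12 secondary granule and late neutrophil genes, the group tied to C/EBPε, 9 were tested, 3 rose and 2 fell (median 0.24). The calprotectin genes S100a8 (log2FC 1.78) and S100a9 (1.40) and the collagenase Mmp8 (1.99) were higher. The integrin gene Itgam (−1.12) and the gelatinase Mmp9 (−1.11) were lower. Ltf, Ngp, Lcn2 and Camp did not pass the test, at log2FC of −0.72, 0.28, 0.24 and −0.19.

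Of 12 myeloid receptor genes, 4 rose and 1 fell (median log2FC 0.19), where 21.6% of all genes rose and 22.6% fell. Nothing particular to these receptors is read from counts this small. The Fc receptor Fcgr3 (1.34), the shared cytokine receptor chain Csf2rb (0.99), Csf1r (0.40) and the endotoxin co-receptor Cd14 (1.87, at under 1 CPM in every library) were higher, and the chemokine receptor Cxcr2 (−0.63) was lower. Csf3r, the G-CSF receptor and a classical C/EBP target, was at 85.4 to 87.3 CPM in KO and 69.5 to 88.9 CPM in WT (log2FC 0.11, adjusted p = 0.346), and these ranges overlap. Of 12 genes described as repressed by Gfi1, 11 were tested, 3 rose (Csf1 0.61, Socs1 0.93, Cdkn1a 0.64) and 4 fell (among them Id2 −1.55, Hoxa9 −0.47 and Meis1 −0.25), so they did not move in 1 direction. Among 20 factors that pair with or control C/EBP proteins, 4 were higher (Fli1 0.73, Nfil3 0.55, Batf 1.15, Atf4 0.49) and 3 lower (Id2, Gata1 −0.32, Ddit3 −0.57), with a median of −0.11, and these shares of the list are near the background. Id2, an inhibitor of helix-loop-helix factors, fell from 88.8, 82.5 and 51.7 CPM in WT to 28.5, 24.7 and 23.3 CPM in KO. Ddit3 encodes CHOP, itself a C/EBP-related protein.

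For the 2 members that are not granulocyte factors, the neighbouring pathways were read from their own lists. Among 16 genes of the ATF4 stress response, in which C/EBPγ takes part, 7 rose and 2 fell (median log2FC 0.33). Over all genes 21.6% rose and 22.6% fell. The cystine transporter Slc7a11 (1.74), the pseudokinase Trib3 (1.41) and the amino acid transporter subunits Slc7a5 (0.72) and Slc3a2 (0.59) rose, Ddit4 (−0.73) and Ddit3 fell, and asparagine synthetase, Asns, was at 0.05 (adjusted p = 0.64). The other list of 16 held genes of nucleoli and ribosome assembly, where Cebpz works, and Ndufaf7, which starts head to head with Cebpz. Of these, 11 rose and none fell (median 0.31). The polymerase I subunit Polr1b rose from 163, 160 and 177 CPM in WT to 360, 366 and 352 CPM in KO (log2FC 1.11), with nucleolin (Ncl, 0.75) and Nolc1 (0.65). Ndufaf7, counted among the 11, was at 0.55 (adjusted p = 0.00086).

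Markers of other cells moved in the same libraries. The summed level of the 5 granulocyte markers was 3735 to 3799 CPM in KO and 1520 to 1671 CPM in WT, and that of the 10 neutrophil markers 81.9 to 186 and 30.8 to 92.4 CPM, which overlap. Of the 5 granulocyte markers 4 were called higher, and of the 8 neutrophil markers tested 3 were higher and 1 lower. All granulocyte markers are in the primary granule list and all neutrophil markers in the secondary granule list. They are not separate observations from those lists. The 6 monocyte markers summed to 454 to 476 CPM in KO and 351 to 537 CPM in WT. Lymphoid markers summed to 297 to 327 CPM in KO against 644 to 769 CPM in WT, erythroid markers to 337 to 449 against 604 to 782 CPM, and stem cell markers to 205 to 245 against 336 to 483 CPM. Dendritic markers summed to 26.5 to 31.2 CPM against 72.7 to 165 CPM, with 7 of 7 tested called lower, and macrophage markers to 7.33 to 13.3 against 9.26 to 34.3 CPM, with 4 of 8 lower. Mast cell and basophil markers went the other way, 62.5 to 72.7 CPM against 30.6 to 36.5 CPM, with 5 of 5 tested called higher. Hepatocyte markers were low but present, at 14.96 to 54.9 CPM in KO and 21.98 to 163 CPM in WT. Their part in the levels of the C/EBP genes was not tested.

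The chromatin data address whether the start sites of these genes carry more H3K4me3, a mark of active promoters. The deposited counts are for a 3 kb window at each transcript start, and each gene was tested at its strongest window by mean count, 51039 in all. By edgeR, H3K4me3 was called higher in KO at Cebpe and Cebpb, 2 of the 8 members, against 7.88% of windows called, 3.22% higher and 4.66% lower. Cebpe had 76.4 and 80.6 CPM in KO and 40.5 and 41.0 CPM in WT (log2FC 0.95, SE 0.22, adjusted p = 0.00135). Its window lies at the start on chromosome 14 at 54712174, on the minus strand (GRCm38.p5). Cebpb, starting on chromosome 2 at 167688915, had 95.2 and 90.5 CPM in KO and 55.8 and 52.4 CPM in WT (log2FC 0.78, SE 0.23, adjusted p = 0.019). The Cebpb call was lost without KO replicate 1 (adjusted p = 0.154) or WT replicate 2 (adjusted p = 0.109).

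At the other members the KO libraries were above the WT libraries too, but the test was not passed. Gfi1 had 105 and 103 CPM in KO and 74.9 and 56.0 CPM in WT (log2FC 0.67, adjusted p = 0.0595), and Cebpa 102 and 92.1 CPM against 71.5 and 56.2 CPM (0.60, adjusted p = 0.0841). WT replicate 2 was the lowest library for these and for every other member except Cebpe, and its TMM factor, 1.18, was the largest. Spi1 had 82.2 and 63.6 CPM in KO and 61.5 and 40.9 CPM in WT (0.51, adjusted p = 0.119), and Cebpd 93.8 and 87.0 against 73.1 and 60.9 CPM (0.43, adjusted p = 0.202). Cebpz (0.33, adjusted p = 0.267) and Cebpg (0.29, adjusted p = 0.331) had the smallest differences. Other settings called more members: DESeq2 also called Gfi1 (adjusted p = 0.0362), and a test over every distinct window also called Cebpa (0.0131), Spi1 (0.0248) and Gfi1 (0.00409). Without WT replicate 1, Cebpa, Spi1 and Gfi1 passed as well (adjusted p = 0.041, 0.0159 and 0.0243).

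Thus all 8 windows did not overlap between the groups, which was so in that direction for 27.4% of all windows and in the other for 37.7%. This count has to be read with the strength of the windows: the 4608 windows of like strength had a median log2FC of 0.32, against −0.15 over all windows, and 1.06% of them were called higher and 0% lower. When windows with a mean log2 CPM under 4 were left out before normalization, 664 were called (335 higher, 329 lower). On that scale Cebpe (0.64, adjusted p = 0.0101), Cebpb (0.47, adjusted p = 0.0106), Gfi1 (0.37, adjusted p = 0.0246) and Cebpa (0.30, adjusted p = 0.0303) were called higher. Spi1, Cebpd, Cebpz and Cebpg were at 0.20, 0.13, 0.03 and −0.00 and were not called. The members with a small difference in RNA, Cebpg and Cebpz, were at the low end here as well, while Cebpd combined the largest difference in RNA with a small difference in the mark.

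**Figure D2:**
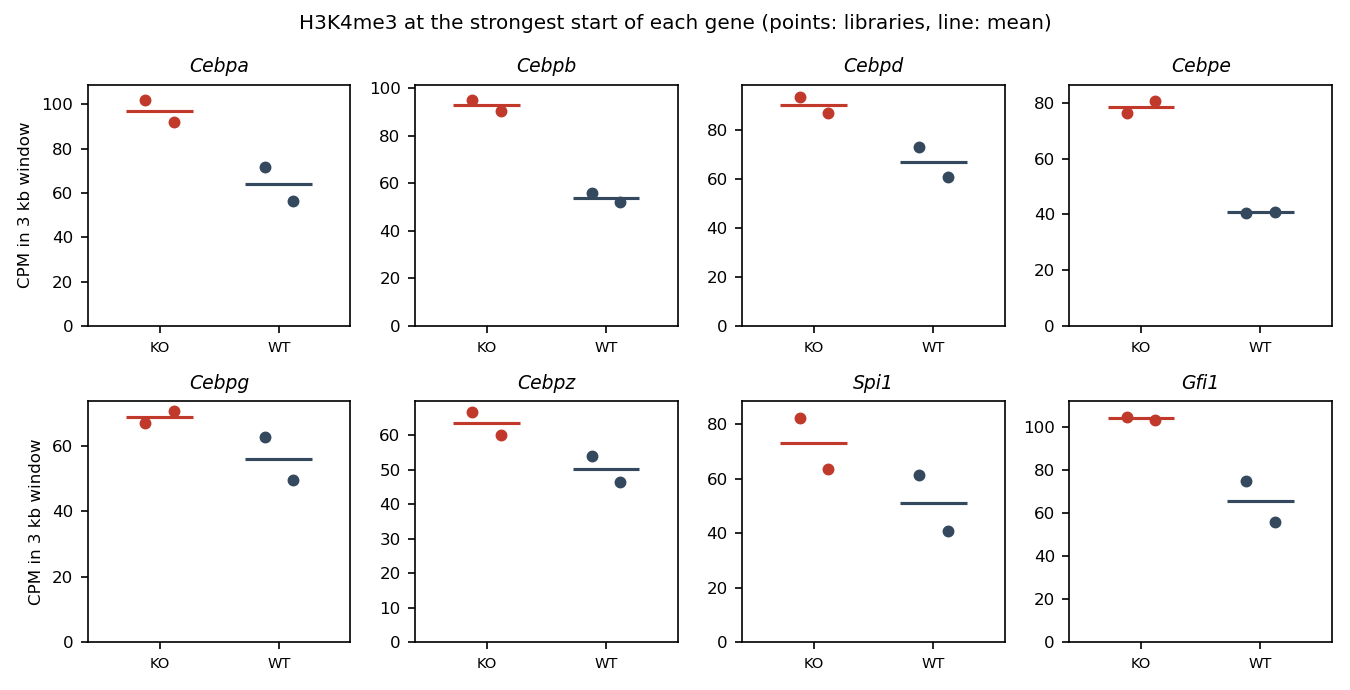
H3K4me3 counts in the strongest 3 kb start window of each gene in CPM (y axis, from 0), with a point for each of the 2 KO and 2 WT libraries and a line at the group mean. Cebpe shows the widest gap, 76.4 and 80.6 against 40.5 and 41.0 CPM, and the lower WT point is replicate 2 for every gene except Cebpe.

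Several members have more than 1 start. Both groups of Spi1 starts on chromosome 2, at 91082390 and 91082408 and at 91096096 and 91096780, showed the same ratio of the KO to the WT mean, 1.45 at the former pair and 1.46 and 1.42 at the latter. The 2 Cebpd starts on chromosome 16, at 15887286 and 15888416, had ratios of 1.30 and 1.35. The distinct Gfi1 starts on chromosome 5, at 107724343, 107725805 and 107726036, had ratios of 1.63, 1.59 and 1.58; these windows overlap. Cebpg on chromosome 7 had a weak window at an intron-retaining transcript start at 35051505, 8.49 CPM in KO and 9.61 CPM in WT, and strong windows at the 3 starts between 35055940 and 35056573. The Cebpz start at 78937070 on chromosome 17 and that of Ndufaf7 had nearly the same counts, 66.9 and 60.2 CPM in KO and 54.2 and 46.6 CPM in WT for Cebpz against 67.0 and 60.2 CPM and 54.0 and 46.1 CPM for Ndufaf7, so the mark there cannot be given to either gene.

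The secondary granule list differed in the mark from what it showed in RNA, while the primary granule list had higher and no lower genes in both. Of the 12 secondary granule genes, 9 had higher H3K4me3 and none lower (median log2FC 0.67), where 3.22% of all windows were higher and 4.66% lower. Cd177 (1.56), Lcn2 (1.33) and S100a8 (1.18) led, although Lcn2 RNA did not pass the test. Itgam (0.51) and Mmp9 (0.65), both lower in RNA, were called higher in the mark. The lists were not compared with windows of like strength. The list with the nucleolar genes, with 0 called, also had 16 of 16 values above 0 (median 0.34). Of the 10 genes in the primary granule list 5 were higher (Ms4a3 1.31, Hp 0.80, Mpo 0.80, Prtn3 0.80 and Plac8 0.70). Of 12 receptor genes 4 were higher (Csf2rb2, Csf2rb, Csf1r and Csf2ra). The neutrophil markers are all in the secondary granule list. They summed to 153 to 187 CPM of H3K4me3 in KO and 85.2 to 85.8 CPM in WT, and 8 of 10 were called higher. Whether this moved the values at Cebpe and Cebpb was not tested.

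Whole liver RNA shows the members in a tissue where hepatocytes also express Cebpa and Cebpb. No member was called between KO and WT INPUT by edgeR, where 1.18% of the 14657 genes tested were called (0.614% higher, 0.566% lower) and 2506 had an unadjusted p under 0.05. DESeq2 called 826 genes. In 6 of the 8 members both KO livers lay above both WT livers, against 22.1% of all genes, and 18.2% had both KO livers below.

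The difference was widest for Cebpd, with 134 and 133 counts in the KO livers (33.2 and 40.7 CPM) and 7 and 0 counts in the WT livers (2.70 and 0 CPM). The fitted log2FC of 4.72 (SE 1.06) rests on those 7 WT counts and missed the threshold (adjusted p = 0.0595). It passed with DESeq2 (adjusted p = 0.000198), with library size alone (0.0423), with no filter on low counts (0.000192), without INPUT_WT replicate 1 (0.0105) and without INPUT_WT replicate 2 (0.0456). The value itself was 10.3 and 3.76 without these libraries. Cebpe had 43 and 37 counts in KO and 5 and 0 counts in WT (log2FC 3.45, SE 1.65, adjusted p = 0.313), and the log2FC was 8.55 without INPUT_WT replicate 1 and 2.49 without INPUT_WT replicate 2. Gfi1 had 66 and 36 counts in KO (16.4 and 11.0 CPM) and 6 and 11 counts in WT (2.32 and 4.50 CPM), with a log2FC of 2.00 (SE 0.86, adjusted p = 0.263). These 3 genes had 0 to 11 counts in the WT livers, where 3 counts correspond to 1.16 and 1.23 CPM.

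Spi1 was at 71.7 and 56.0 CPM in KO and at 7.72 and 31.9 CPM in WT (log2FC 1.69, SE 0.59, adjusted p = 0.178), so the WT livers differed from each other by more than the KO livers did, and without INPUT_WT replicate 2 it passed (adjusted p = 0.025). Cebpb was at 41.9 and 55.7 CPM in KO and at 24.7 and 21.3 CPM in WT (1.08, SE 0.66, adjusted p = 0.428). Cebpg was at 43.9 and 27.8 CPM against 18.9 and 26.97 CPM (0.65, adjusted p = 0.357), with groups that barely separate. Cebpa, abundant in hepatocytes, was at 98.2 and 115 CPM against 75.7 and 107 CPM (0.23, adjusted p = 0.736), and Cebpz at 33.0 and 68.2 CPM against 41.3 and 47.0 CPM (0.19, adjusted p = 0.849). The last 2 overlap between the groups. With library size alone the median over all genes was 0.29 in place of 0.02, with 271 higher and 58 lower calls in place of 90 and 83.

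Cell type markers differed between these livers. In KO INPUT the granulocyte markers summed to 411 to 475 CPM against 166 to 188 CPM in WT, the neutrophil markers to 363 to 390 against 119 to 181 CPM and the monocyte markers to 205 to 212 against 68.3 to 73.4 CPM. Macrophage markers summed to 546 to 590 CPM against 202 to 244 CPM, and hepatocyte markers to 19604 to 20378 CPM against 10001 to 13342 CPM. Erythroid markers were lower, 1530 to 1921 CPM against 2679 to 3295 CPM. Of the 14 liver genes known as C/EBP targets 11 were tested, 4 rose and none fell (median 1.01), with the fibrinogen genes Fga (1.35) and Fgb (1.48), Serpina1a (1.27) and Afp (0.76). All the hepatocyte markers summed above are in this list, so the list and the sum are not separate observations. Of the primary granule list, which holds all the granulocyte markers, 4 of 10 genes rose. Among them were the protease activator Ctsc (2.69, adjusted p = 0.00056) and Plac8 (3.80, adjusted p = 0.024). The part of these markers in the values of the C/EBP genes was not tested.

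**Figure D3:**
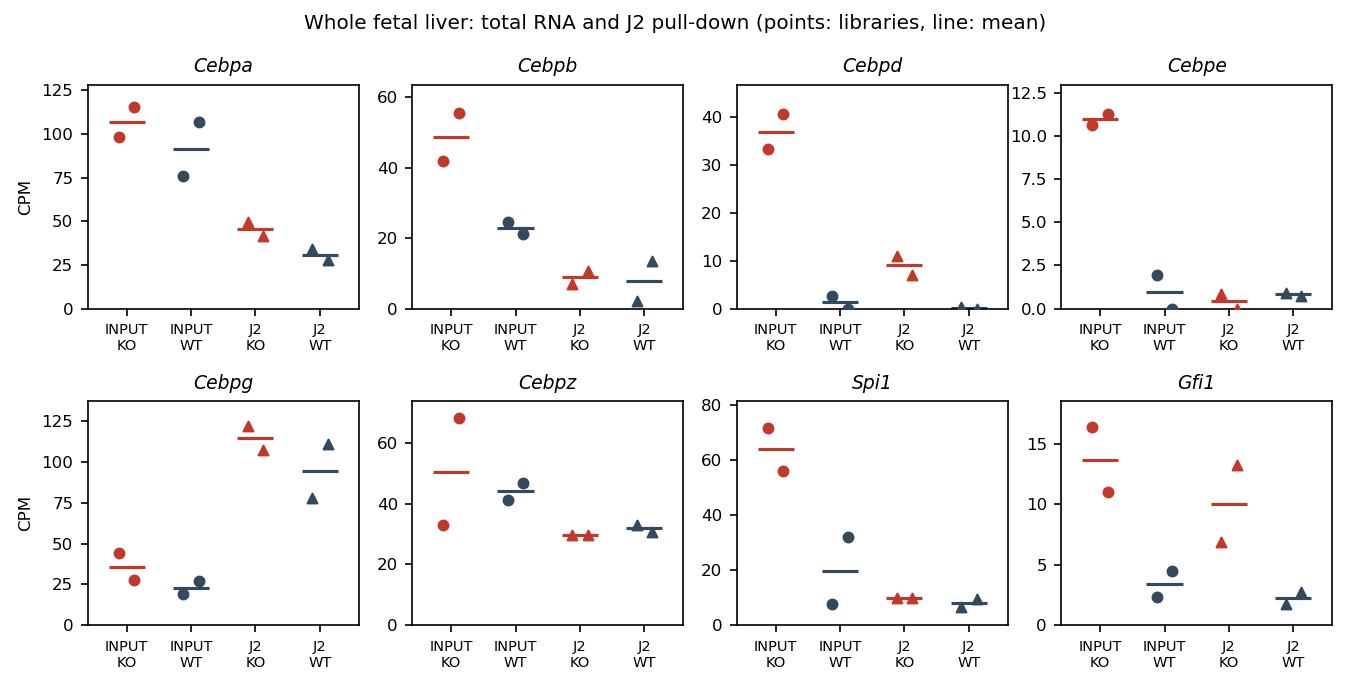
Levels of the 8 genes in whole fetal liver in CPM (y axis, from 0), with circles for total RNA (INPUT), triangles for RNA pulled down with J2, 2 libraries per group and a line at the mean. Cebpg alone lies clearly higher in J2 than in INPUT in both genotypes, at 78.1 to 122 CPM against 18.9 to 43.9 CPM.

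The J2 pull-down asks which RNAs are recovered with duplex structure. Cebpg was enriched over INPUT in both genotypes, and it was the only member with a call in that direction, against 13.2% of genes called higher in WT (23.9% called in all) and 15.3% in KO (30.4% in all). In the WT livers Cebpg went from 49 and 66 counts in INPUT to 352 and 441 counts in J2, that is from 18.9 and 26.97 to 78.1 and 111 CPM (log2FC 2.04, SE 0.34, adjusted p = 0.00127). In the KO livers it went from 43.9 and 27.8 CPM to 122 and 108 CPM (1.67, SE 0.33, adjusted p = 0.00248). The groups did not overlap in either genotype, and both calls held in every alternative run, with each library left out in turn included.

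Cebpa RNA was depleted in both genotypes, against 10.7% of genes called lower in WT and 15.1% in KO. It fell from 75.7 and 107 CPM in WT INPUT to 34.2 and 27.7 CPM in J2 (log2FC −1.56, SE 0.30, adjusted p = 0.00281), and from 98.2 and 115 CPM to 49.8 and 41.3 CPM in KO (−1.23, SE 0.29, adjusted p = 0.00724). The KO call was lost without INPUT_KO replicate 2 (adjusted p = 0.0541) or J2_KO replicate 2 (adjusted p = 0.0969). Spi1 was depleted in KO, from 71.7 and 56.0 to 9.97 and 9.71 CPM (−2.69, SE 0.60, adjusted p = 0.0054), and was not called in WT (−1.28, adjusted p = 0.147). Cebpb was likewise depleted in KO, from 41.9 and 55.7 to 7.02 and 10.8 CPM (−2.45, SE 0.69, adjusted p = 0.0181), and not called in WT, where J2 was at 2.22 and 13.6 CPM (−1.55, adjusted p = 0.128). In WT, Cebpb passed without J2_WT replicate 2 (−3.34, adjusted p = 0.0152) and Spi1 without INPUT_WT replicate 1 (−1.96, adjusted p = 0.00956), while Spi1 was at 0.078 without INPUT_WT replicate 2. The KO call of Cebpb was lost without INPUT_KO replicate 2 (0.0846), J2_KO replicate 1 (0.137) or J2_KO replicate 2 (0.0587). Cebpd (−2.03, adjusted p = 0.101) and Cebpe (−4.63, adjusted p = 0.0588) were not called in KO; with DESeq2 both passed (0.0468 and 0.0156). In WT they rest on 7 and 5 INPUT counts. Gfi1 and Cebpz were not called in either genotype.

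The difference in enrichment between the genotypes was itself tested. No member was called, and none of the 14657 genes was (0%), with 1340 at an unadjusted p under 0.05, 76 called by DESeq2 and 10 with the liver as a block, since INPUT and J2 came from parts of the same livers. The difference was −0.37 for Cebpg (SE 0.46, adjusted p = 0.85), 0.33 for Cebpa (SE 0.41, adjusted p = 0.844), −0.90 for Cebpb (SE 0.95, adjusted p = 0.813) and −1.41 for Spi1 (SE 0.83, adjusted p = 0.634). So the calls for Spi1 and Cebpb in KO and not in WT do not show a difference between the genotypes. With library size alone, the median over all genes was 0.52 in place of 0.10 in WT and 0.33 in place of 0.04 in KO, and the calls to 2910 higher and 998 lower in WT and 2933 and 1730 in KO, from 1937 and 1566 and from 2246 and 2216. Among C/EBP partners, 4 of 19 were enriched and 3 depleted in WT, 5 and 3 in KO. In WT these were Fli1 (1.74), Runx1 (0.96), Ikzf1 (0.87) and Zfpm1 (0.60) and, depleted, Jun (−2.88), Irf8 (−2.72) and Gata1 (−0.90). Of the 10 RNAs in the primary granule list, 5 were depleted in WT and 6 in KO, with 1 enriched in each. Over all genes 13.2% were called enriched and 10.7% depleted in WT, and 15.3% and 15.1% in KO. Nothing particular to the partners is read from their small counts.

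The single-cell libraries hold 15707 cells, of which 15678 passed the filter (500 or more counts, mitochondrial share below 20%): 4920 and 3884 from the libraries labelled KO and 2731 and 4143 from those labelled WT. Pairs of libraries shared 0 to 3 cell barcodes. Median counts per cell were 1479 and 2135 in the libraries labelled KO and 2099 and 1560 in those labelled WT. Because Mettl3 goes against the labels here, each direction below is that of the library labelled KO against the library labelled WT. Neutrophil markers set the libraries numbered 1 apart from those numbered 2: they summed to 1285 CPM in KO 1 and 737 CPM in WT 1, against 54.7 CPM in KO 2 and 59.9 CPM in WT 2, and 266, 56, 11 and 13 cells in that order had at least 3 such counts. Same-numbered libraries correlated in their deviations at r = 0.26. Other marker sums, in libraries labelled KO against those labelled WT, were 937 to 1585 against 697 to 792 CPM for granulocyte markers, 132 to 162 against 269 to 290 CPM for lymphoid, 19.4 to 23.8 against 52.6 to 209 CPM for dendritic and 216 to 332 against 400 to 421 CPM for monocyte markers. The directions of the granulocyte, lymphoid and dendritic sums are those of KO against WT in bulk RNA. Monocyte sums overlapped in bulk RNA, at 454 to 476 CPM in KO and 351 to 537 CPM in WT. Mean megakaryocyte sums went opposite ways, 62.0 against 46.4 CPM in bulk RNA and 67.5 against 114 CPM here. The part of all these markers in the values below was not tested.

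Summed over cells, 7 members were tested and none was called, against 0.00748% of the 13374 genes tested by edgeR. By unadjusted p under 0.05 1932 genes passed, and DESeq2 called 310. All 7 log2FC were above 0, though that of Cebpg fell below 0 with RLE factors or DESeq2. In 5 both libraries labelled KO lay above both labelled WT, against 25% of genes, with 23.8% in the other direction. For Gfi1, counted among the 5, the nearest libraries were almost equal, 12.99 CPM in KO 2 and 12.98 CPM in WT 2. Cebpb was at 54.9 and 50.6 CPM in the libraries labelled KO and at 29.6 and 29.1 CPM in those labelled WT (log2FC 0.85, SE 0.14, adjusted p = 0.233; DESeq2 adjusted p = 0.0349). Cebpd was at 30.9 and 20.5 CPM against 11.5 and 11.2 CPM (1.17, SE 0.25, adjusted p = 0.251). Cebpz was at 207 and 209 CPM against 135 and 159 CPM (0.50, SE 0.14, adjusted p = 0.275). The groups of these 3 genes did not overlap, though the libraries labelled KO differed from each other for Cebpd.

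Cebpa was sparse, 82 and 81 counts in the libraries labelled KO and 36 and 29 in those labelled WT, or 8.72 and 6.70 CPM against 5.25 and 3.36 CPM (0.85, SE 0.33, adjusted p = 0.342). Gfi1 was at 19.1 and 12.99 CPM against 9.04 and 12.98 CPM (0.53, adjusted p = 0.469). Spi1, at 89.7 and 66.1 CPM against 80.2 and 66.3 CPM (0.09, adjusted p = 0.893), and Cebpg, at 56.8 and 62.6 CPM against 55.3 and 63.3 CPM (0.01, adjusted p = 0.989), overlapped between the groups. Cebpe was found only in the library labelled KO 1, with 35 counts in 31 cells. Of these, 27 counts lay in cells with granulocyte markers and 21 in cells with neutrophil markers. The other 3 libraries had 0 counts, which allows up to 0.248 to 0.438 CPM by counting error. Without the cells that carry neutrophil markers, an alternative added after seeing the data, the log2FC of Cebpb and Cebpd were 0.86 and 1.11.

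Cells were also grouped by marker counts, at least 3 counts of a list, so a class is a range of marker level and not a cell type. Classes overlap: 8887 cells were in none, 5304 in 1 and 1487 in 2 or more. The granulocyte-marker class held 1829 and 1213 cells in the libraries labelled KO, 37.2% and 31.2% of their cells, and 574 and 699 in those labelled WT, 21.0% and 16.9%. A share of 1302 among these 4315 cells lay at the threshold of 3 counts itself. Within this class no member was called (0.0823% of 10930 genes were, 0.0457% higher and 0.0366% lower, 1470 by unadjusted p and 85 by DESeq2). Cebpb was at 70.4 and 61.2 CPM in cells of the libraries labelled KO and 40.3 and 34.8 CPM in those labelled WT (log2FC 0.81, SE 0.21, adjusted p = 0.186). Cebpd was at 45.0 and 25.1 CPM against 18.6 and 11.7 CPM (1.21, SE 0.35, adjusted p = 0.235), and passed without KO replicate 2 (1.58, adjusted p = 0.0109) or with no filter on low counts (adjusted p = 0.0185). Over all cells the log2FC of Cebpb and Cebpd had been 0.85 and 1.17. Within this class, lymphoid markers summed to 119 to 127 CPM in the libraries labelled KO and 201 to 206 CPM in those labelled WT, monocyte markers to 254 to 428 against 462 to 535 CPM, and neutrophil markers to 2194 and 93.0 against 1713 and 187 CPM. Their part in these values was not tested. Cebpa (0.25), Gfi1 (0.31), Cebpz (0.38), Cebpg (0.13) and Spi1 (−0.04) were not called there either.

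Among cells without any granulocyte marker count, 1223 and 1292 in the libraries labelled KO and 1313 and 2051 in those labelled WT, again no member was called (0.0942% of 10617 genes were, 0.0659% higher and 0.0283% lower, 1129 by unadjusted p and 67 by DESeq2). Cebpz was at 204 and 201 CPM against 121 and 151 CPM (log2FC 0.57, SE 0.17, adjusted p = 0.35). Cebpb was at 37.8 and 29.0 CPM against 21.5 and 26.4 CPM (0.47, SE 0.25, adjusted p = 0.558), and Cebpd at 11.8 and 10.6 CPM against 5.92 and 11.7 CPM (0.32, SE 0.40, adjusted p = 0.815). Only Cebpb and Cebpz of these 3 kept separate groups. Whether the differences of Cebpb and Cebpd differ between cells with and without granulocyte markers was not tested.

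Levels by class are given as CPM of the summed counts without TMM. Across the 5 classes with at least 50 cells in every library, Cebpb was highest in cells with monocyte markers. In the libraries labelled WT it was at 69.7 to 73.0 CPM there, at 36.2 to 36.9 CPM in cells with granulocyte markers, at 23.4 to 26.1 CPM in cells with no marker, at 16.0 to 18.5 CPM with erythroid markers and at 14.9 to 17.7 CPM with lymphoid markers. The last 2 ranges overlap and the others do not. In the libraries labelled KO the monocyte class was again the highest at 95.8 to 105 CPM, but the lymphoid class, at 67.9 to 82.9 CPM, overlapped the granulocyte class at 64.8 to 68.5 CPM. Of the cells with lymphoid markers, 45.3% and 49.4% also counted as granulocyte-marker cells in the libraries labelled KO, against 13.7% and 21.8% in those labelled WT. Among lymphoid-marker cells without granulocyte counts there were 2 to 4 Cebpb counts per library, too few to compare. The same overlap was seen for cells with monocyte markers, 72.1% and 75.2% against 40.4% and 35.9%.

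Cebpd was at 40.4 to 55.3 CPM in monocyte-marker cells and 26.6 to 43.8 CPM in granulocyte-marker cells of the libraries labelled KO, against 18.8 to 20.8 and 12.2 to 17.02 CPM in those labelled WT, and the former ranges overlap. In erythroid-marker cells it rested on 44 counts in the libraries labelled KO and 9 in those labelled WT, and in lymphoid-marker cells on 26 and 8. Lymphoid-marker cells without granulocyte counts held 0 or 1 Cebpd count per library. Such erythroid-marker cells held 4 and 1 counts in the libraries labelled KO and 1 and 3 in those labelled WT. These are too few to compare. Cebpz ranged over the classes from 187 to 310 CPM in the libraries labelled KO and from 116 to 188 CPM in those labelled WT. For Cebpb, Cebpd and Cebpz the libraries labelled KO lay above those labelled WT in all 5 classes, where 23.9% of genes did so in granulocyte-marker cells, 30.9% in monocyte-marker, 27.2% in lymphoid-marker and 22.3% in erythroid-marker cells and 24.2% in cells with no marker. In the other direction these shares were 18.1%, 17.1%, 15.7%, 12.2% and 20.3%. The classes share cells and libraries, so they are not 5 separate observations. Cebpa was separate only in erythroid-marker cells, on 2 counts in WT, and in cells with no marker. Gfi1 was separate in monocyte-marker cells, 16.4 to 20.04 against 7.30 to 9.36 CPM, and in cells with no marker. Spi1 was separate in lymphoid-marker cells alone, 75.1 to 105 against 49.0 to 68.9 CPM, and Cebpg in no class. Counts from RNA free in the droplets were not estimated.

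**Figure D4:**
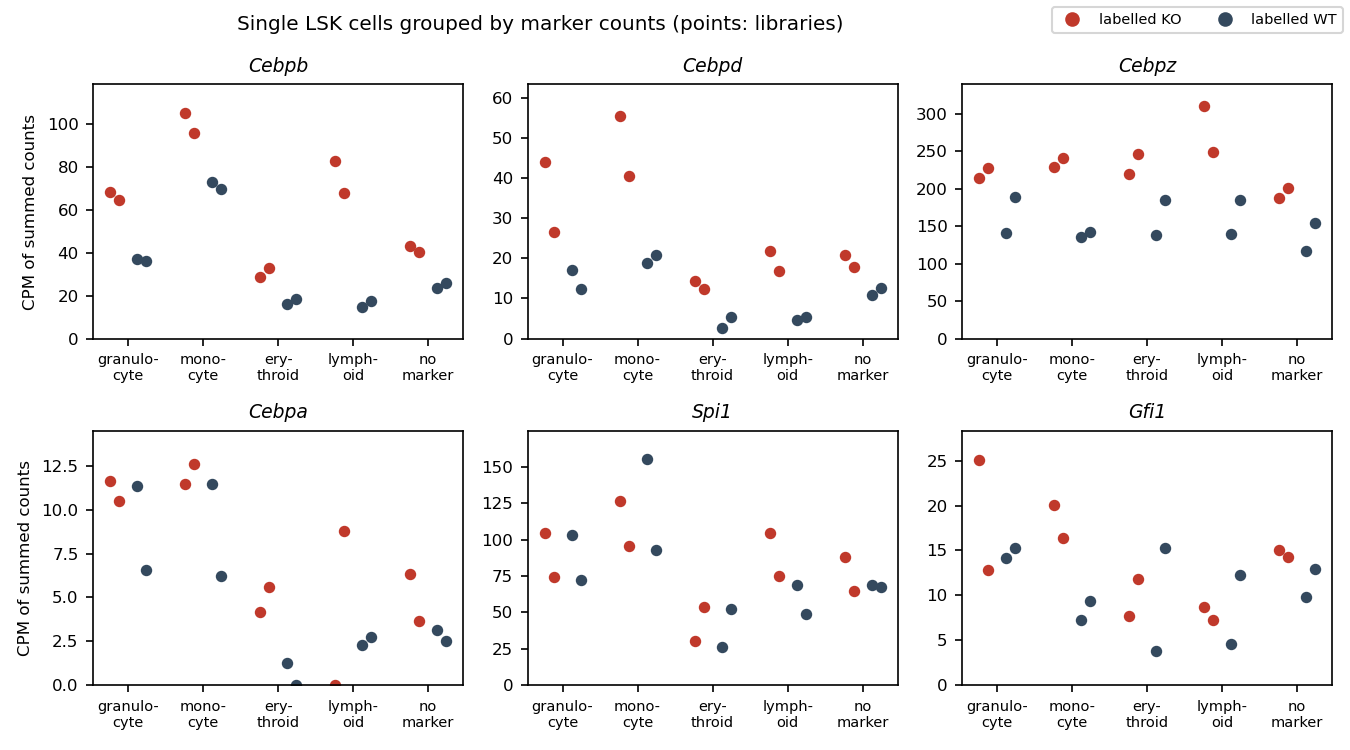
Levels of 6 genes in CPM of summed counts (y axis, from 0) in cells grouped by marker counts, with a point for each of the 2 libraries labelled KO (left in each class) and the 2 labelled WT (right). For Cebpb, Cebpd and Cebpz the points labelled KO lie above those labelled WT in each of the 5 classes, while those of Spi1 are intermixed in most.

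The genes most like a member were sought over 27 profiles (class by library, 9 classes with at least 50 cells in some library), among 6760 genes with at least 500 counts, by Pearson's r of log2(CPM + 1). The profiles share libraries and cells, so r is given as a description. Nearest to Cebpb were Surf4 (r = 0.86), Selenos (0.86) and BC005537 (0.86). Nearest to Spi1 were Glipr1 (0.86), Tm6sf1 (0.83) and Anxa1 (0.82). Gfi1 was nearest to Tmx4 (0.81), Pam (0.79) and Cd63 (0.76), and Cebpa, on 228 counts, to Trappc3 (0.77), Zfp524 (0.76) and Mfsd10 (0.72). Cebpe had too few counts.

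Side by side, Cebpb and Cebpe were called higher in both LSK RNA and H3K4me3, with log2FC of 1.51 and 0.78 for Cebpb and 1.77 and 0.95 for Cebpe. Cebpd had the largest RNA difference in LSK cells (2.23) with 0.43 in the mark, and its whole liver value (4.72, not called) rests on 7 WT counts. Spi1 and Cebpg, at 0.41 and 0.21 in bulk RNA, were near 0 in the single-cell sums at 0.09 and 0.01. Cebpz, at 0.26 in bulk RNA, was at 0.50 in the single-cell sums, and no member was called there. In the pull-down Cebpg was the 1 member of 8 called enriched in each genotype. This count is near the share of all genes called enriched, 13.2% in WT and 15.3% in KO.

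**Figure D5:**
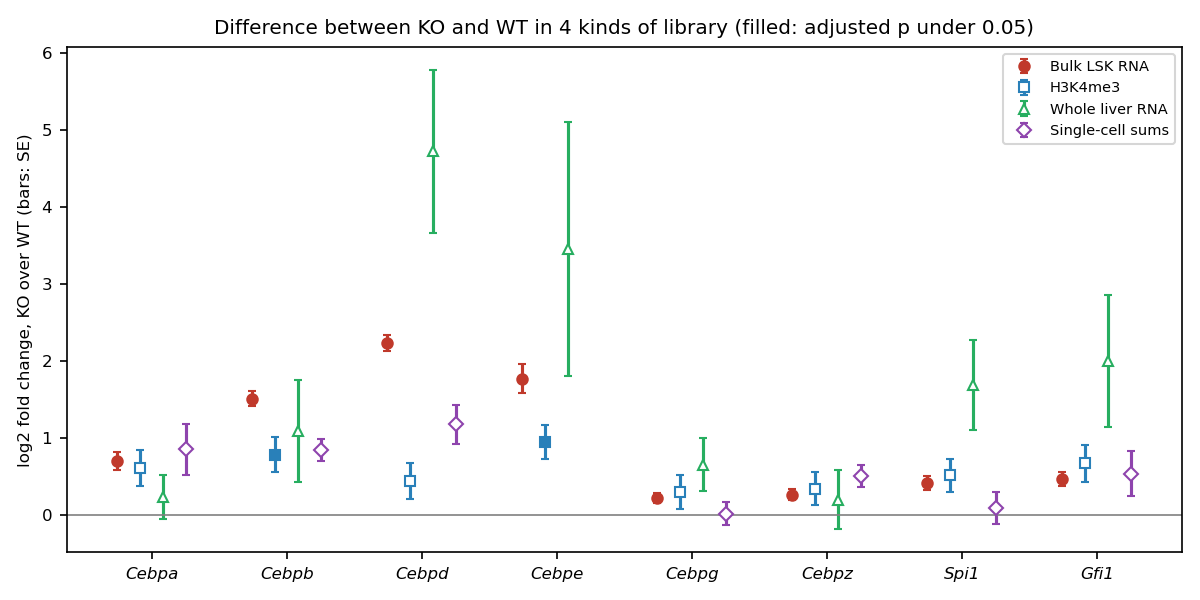
Log2 fold change of KO over WT (y axis, bars are SE) for the 8 genes in bulk LSK RNA, H3K4me3, whole liver RNA and single-cell sums, with filled symbols for an adjusted p under 0.05. All bulk RNA symbols are filled and above 0, and of the H3K4me3 symbols those of Cebpb and Cebpe are filled. Cebpe has no value in the single-cell sums.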

How the data were processed

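All values are raw counts deposited by the authors, per the labels: reads per gene (bulk, INPUT, J2), reads in a 3 kb window per transcript start (H3K4me3) and counts per gene and cell. The submitters' processing notes name GRCm38.p5, Seurat 3.0, edgeR, bedtools, Picard 2.9.0, Bowtie2 2.2.9 and STAR 2.5.3a, with no role for any. The counting tool, strand setting and duplicate removal are not given in the sources used here, so a gene and its antisense partner cannot be told apart. Whether single-cell counts are unique molecules, and whether doublets were removed, is not stated; no doublets were removed here.

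Counts were tested with edgeR 4.0.16 in R 4.3.3 (filterByExpr, TMM, quasi-likelihood F test), on all genes of a table. The procedure was run on data simulated with a fixed spread, which was not taken from the replicates. Of genes set to a log2FC of 1 in size, it recovered 93% in bulk, 41.8% in H3K4me3, 15.6% in the J2 interaction and 48.4% to 65.3% elsewhere. In bulk 7.28% of its calls were false. These rates hold for that spread and were not measured at the spread of the real replicates. A missing call is no sign of equal levels. The 8 INPUT and J2 libraries entered 1 fit; single-cell counts were summed per library. Floors cover counting error only. Alternatives were DESeq2 1.42.0, other scaling, no filter, left-out libraries and replicate blocks. By the protocol each liver gave both INPUT and J2; same-numbered deviations correlated at r = 0.01 (KO) and 0.13 (WT). The members and lists were chosen with earlier results of these data known. The rule named, for each list, the 2 to 4 genes with the lowest adjusted p in bulk RNA and genes without a call whose role is described; further list genes were chosen after their values were seen. A fit without enough counts for Cebpe (single-cell sums) or Cebpa (cells without granulocyte markers) dropped that gene.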

Additional observations from a re-analysis of the deposited data

How the results depend on the processing

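In bulk RNA the count of called genes stayed between 4677 and 6796 with a library left out. It was 7018 with the replicate number as a block. Same-numbered bulk libraries correlated in their deviations at r = 0.23, 0.10 and 0.04, and 1 KO library correlated best with another number. For H3K4me3 same-numbered libraries correlated at r = 0.30 and the others at −0.30. These values cannot settle whether the numbers pair samples. In H3K4me3, 4024 calls became 802 with DESeq2 (759 higher, 43 lower), 20842 with the replicate block, 12985 over every distinct window, 664 over windows of at least 4 log2 CPM (where Cebpg turned to −0.0037) and 1080 to 3858 with a library left out. With library size alone the median of all windows moved from −0.15 to −0.40 and the split from 1644 higher and 2380 lower to 1305 and 3309 (1999 and 1993 with RLE factors); Cebpa (0.36) and Gfi1 (0.43) then passed. INPUT calls went from 173 to 329 with library size alone, 826 with DESeq2, 798 unfiltered, 25 with the 4 INPUT libraries alone (added after seeing the data) and 29 to 451 with a library left out; the block gave 167. J2 enrichment calls ranged from 1855 to 3600 in WT and 2744 to 3443 in KO with a library left out; the animal block gave 3502 and 4451. The interaction had 0 calls, 3 with library size alone, 76 with DESeq2, 103 unfiltered, 10 with the animal block and 0 to 9 with a library left out.

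Single-cell sums gave 1 call, 310 with DESeq2 (212 higher, 98 lower), 11 unfiltered, 117 with the replicate block and 0 with any library left out. Granulocyte-marker cells gave 9, 14 with library size alone, 85 with DESeq2, 285 unfiltered, 152 with the block and 4 to 197 with a library left out. Cells without these markers gave 10, then 67, 86, 308 and 6 to 36 for DESeq2, no filter, block and left-out libraries. The cause was not tested. With the replicate number as a block, which rests on 2 pairs, all 8 members passed in H3K4me3, and Cebpd passed in INPUT (adjusted p = 0.0492) and in granulocyte-marker cells (0.045); the blocks changed no other call of a member.

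Some values changed sign. Cebpe in J2 over INPUT in WT became 0.14 with library size alone and 0.33 with the animal block. Cebpg in the single-cell sums became −0.0031 with RLE factors and −0.0032 with DESeq2, and Spi1 became 0.026 in granulocyte-marker cells and 0.034 in cells without these markers with library size alone. With a library left out, ranges that cross 0 were −0.44 to 0.57 for Cebpz in INPUT. In J2 over INPUT in WT they were −5.48 to 2.33 for Cebpd, −1.19 to 4.87 for Cebpe and −1.96 to 0.078 for Spi1. In the interaction they were −1.68 to 0.91 for Cebpb, −4.34 to 3.48 for Cebpd, −0.63 to 0.068 for Cebpg, −0.66 to 0.35 for Cebpz and −0.40 to 0.56 for Gfi1. In the single-cell sums they were −0.081 to 0.11 for Cebpg and −0.15 to 0.29 for Spi1. In granulocyte-marker cells they were −0.16 to 0.80 for Cebpa, −0.052 to 0.39 for Cebpg, −0.36 to 0.35 for Spi1 and −0.30 to 0.77 for Gfi1. In cells without these markers they were −0.073 to 0.91 for Cebpd, −0.078 to 0.20 for Cebpg, −0.080 to 0.026 for Spi1 and −0.081 to 1.02 for Gfi1. A left-out library can leave a group with 1 sample, which is then assumed to vary like the other groups. INPUT depth limits Cebpd, Cebpe and Gfi1, which had 0 to 11 counts per WT liver.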
